A study of Mus musculus with 11 samples.

Results

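Cell cycle and DNA replication genes were followed in alveolar macrophages, which patrol the air spaces of the lung, during and after a mouse model of macrophage activation syndrome (MAS), a state of excessive macrophage activation. The set was a list of 46 gene symbols, and genes were taken by symbol, with no measured value in the rule itself. Of these, 43 had a transcript cluster on the array, each with 1 cluster, among 19505 genes named on the array. The symbols Ccnd1, Mcm7 and Ccnb1 had none and were not analysed here. A filter on low values left 12143 genes for testing, 42 of them from the list. Cenpf, which encodes a kinetochore protein, was the listed gene that the filter left out, and it lay below background on every array.

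The study used 11 female mice of the strain C57BL/6J, purchased when 6 weeks old and injected 5 times over 10 days. In the resolution group (n = 4) the injections held CpG 1826, a synthetic DNA oligonucleotide that stimulates Tlr9, and lavage followed on day 30. In the acute group (n = 3) the same CpG course was followed by lavage on day 10. In the control group (n = 4) the injections held the vehicle PBS, with lavage on day 10. The labels name 1 strain and no engineered allele. Macrophages were taken from bronchoalveolar lavage fluid and purified by adherence, and each mouse gave 1 array. Because the resolution group differed from the other groups in its lavage day as well as in its stage, these cannot be told apart in either comparison with it. Against control it also differed in the injections, CpG against PBS, and no PBS group had lavage on day 30. In that comparison, treatment cannot be told apart from lavage day either.

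A dividing cell passes through a fixed order of steps. D-type cyclins with Cdk4 and Cdk6 release E2F factors from the retinoblastoma protein family, E2F factors switch on genes for replication, MCM proteins are loaded at origins by Cdc6 and Cdt1, and DNA is copied around the Pcna clamp. Mitotic genes follow later, many of them kept silent in resting cells by the DREAM complex, which acts through CHR elements in their promoters. Inhibitors such as Cdkn1a and Cdkn1b hold the kinases in check. Alveolar macrophages in the adult lung are long-lived and renew themselves mainly by local division, so a low level of these transcripts is a normal part of this cell population.

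Promoter sequences are shown for 4 genes on which the results below turn: Cdc6, which was higher in resolution than in both other groups, Mcm5, which was higher in resolution than in acute, and 2 late cell cycle genes with large differences between mice. Each is the RefSeq promoter window of the mouse build GRCm38.p6, from 250 bases before to 50 bases after the annotated start, read 5′ to 3′ on the gene's strand. Capitals mark matches, on either strand, to the CHR hexamer TTTGAA, the NF-Y box CCAAT, or an E2F core. The core was searched as TTGGCGC in its first form, as TTCCCGC in its next form and as TTCGCGC in its last form, and neighbouring E2F matches may overlap. Cdc6 lies at chr11:98907901-98908200 on the plus strand and Mcm5 at chr8:75109259-75109558 on the plus strand. Mki67 lies at chr7:135716330-135716629 on the minus strand and Top2a at chr11:99024140-99024439 on the minus strand.
Cdc6: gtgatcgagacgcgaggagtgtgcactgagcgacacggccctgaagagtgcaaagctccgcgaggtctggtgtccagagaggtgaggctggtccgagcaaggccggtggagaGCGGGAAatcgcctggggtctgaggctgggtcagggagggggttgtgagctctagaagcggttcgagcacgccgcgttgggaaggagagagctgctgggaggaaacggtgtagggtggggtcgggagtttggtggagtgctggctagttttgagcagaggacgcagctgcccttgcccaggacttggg
Mcm5: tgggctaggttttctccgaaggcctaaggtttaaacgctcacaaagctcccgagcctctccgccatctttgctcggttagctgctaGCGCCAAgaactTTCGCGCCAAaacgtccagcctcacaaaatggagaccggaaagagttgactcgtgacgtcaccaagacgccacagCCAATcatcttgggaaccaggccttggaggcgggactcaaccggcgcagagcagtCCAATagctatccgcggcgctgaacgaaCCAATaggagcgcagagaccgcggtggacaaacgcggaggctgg
Mki67: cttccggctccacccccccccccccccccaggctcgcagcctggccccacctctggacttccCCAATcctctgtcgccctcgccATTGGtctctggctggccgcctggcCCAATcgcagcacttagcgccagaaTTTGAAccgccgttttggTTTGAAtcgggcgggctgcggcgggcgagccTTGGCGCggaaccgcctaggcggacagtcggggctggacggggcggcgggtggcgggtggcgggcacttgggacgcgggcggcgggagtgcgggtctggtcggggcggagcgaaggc
Top2a: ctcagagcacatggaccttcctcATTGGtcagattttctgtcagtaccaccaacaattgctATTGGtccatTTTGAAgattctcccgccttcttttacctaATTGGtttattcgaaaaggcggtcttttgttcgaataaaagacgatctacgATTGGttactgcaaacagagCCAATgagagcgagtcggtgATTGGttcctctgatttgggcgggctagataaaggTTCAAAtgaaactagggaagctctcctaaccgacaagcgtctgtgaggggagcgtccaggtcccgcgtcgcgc
The Cdc6 window held 1 E2F core, and the Mcm5 window held 3 E2F cores and 3 CCAAT boxes. The Mki67 window held 2 CHR hexamers, 3 CCAAT boxes and 1 E2F core, and the Top2a window held 2 CHR hexamers and 6 CCAAT boxes. Windows were found for 36 of the 43 genes, giving 40 windows, since some genes have more than 1 start. The CHR hexamer stood in 76.5% of the 17 windows of G2 and mitotic genes and in 18.2% of the 11 windows of replication genes, beside 17.9% of all 32851 windows in the table. An E2F core stood in 11.8% of the windows of mitotic genes and in 54.5% of those of replication genes, beside 8.07% of all windows. A CCAAT box stood in 88.2% of mitotic and 72.7% of replication windows, beside 37.4% of all. These matches describe letters in a fixed window and not bound factors.

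All values below are log2(intensity + 1), where intensity is the signal of a transcript cluster on the array, and levels are compared between arrays within a gene, never between genes. Differences were tested with limma, and p-values were adjusted by the Benjamini-Hochberg method over all 12143 genes with a threshold of 0.05. The 11 arrays were alike in median intensity (51.4 to 57.0) and in background, set from probes that match no mouse sequence (6.12 to 6.24). Of the 43 genes, 38 were above background on every array, and Cdkn2c, Cdc45, Aurka and Bub1 were above it on 9 or 10 of the 11. All 13 alveolar macrophage markers, Siglecf among them, were above background in every group. Of the 13, 3 were higher and 2 lower in resolution than in control, which is 38.5%, beside 18.6% of all genes tested. Against acute, 2 were higher and 1 was lower in resolution, which is 23.1%, beside 14.5% of all genes tested. The mean level of the 13 was 14.71 to 14.80 in resolution, 14.55 to 14.68 in acute and 14.63 to 14.73 in control arrays. Markers of other cells also differed between groups. The mean of 14 epithelial markers was 7.60 to 7.93 in resolution, 9.03 to 9.51 in acute and 7.99 to 8.43 in control arrays, with Krt18, Cldn3 and Sftpb below background in every group. Of the 11 tested, 1 was higher and 7 were lower in resolution than in acute (72.7%, beside 14.5% of all genes). Against control, 1 was higher and 4 were lower in resolution (45.5%, beside 18.6% of all genes). Between acute and control, 4 were higher and 0 lower in acute (36.4%, beside 0.239% of all genes). Krt19, Epcam and Cdh1 averaged highest in resolution, with Krt19 at 13.79 there, 11.78 in acute and 12.01 in control arrays. The mean of 11 T cell markers was 5.94 to 6.09 in resolution, 6.36 to 6.73 in acute and 6.20 to 6.38 in control arrays. Of these, Cd3e, Cd3g, Cd6, Cd8a, Bcl11b and Thy1 were below background throughout. Cd2 ran the other way, averaging 14.58 in resolution, 14.37 in acute and 14.45 in control arrays. The mean of 10 NK and cytotoxic cell markers was 4.55 to 4.62 in resolution, 5.15 to 5.29 in acute and 4.48 to 4.86 in control arrays, with all but Klrd1 and Il2rb below background throughout. The mean of 7 monocyte markers was 5.13 to 5.31 in resolution, 5.39 to 5.93 in acute and 4.99 to 5.66 in control arrays, with Ly6c2, Cx3cr1 and F13a1 below background throughout. Ccr2 ran the other way, averaging 6.36 in resolution, 5.81 in acute and 5.60 in control arrays, and was above background on 3 resolution arrays alone. The mean of 10 neutrophil markers was 5.89 to 6.00 in resolution, 6.27 to 6.42 in acute and 6.03 to 7.05 in control arrays. Csf3r ran the other way, averaging 10.40 in resolution, 9.68 in acute and 9.72 in control arrays. The mean of 7 B cell markers was 4.54 to 4.65 in resolution, 4.73 to 4.85 in acute and 4.69 to 5.54 in control arrays. All of these but Blk were below background throughout. Control 4 had the highest control mean for monocyte (5.66), neutrophil (7.05) and B cell markers (5.54). The part of these cells in the results below was not tested. In a bulk sample, fewer dividing cells and less of a transcript per cell cannot be told apart.

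Of the 42 genes, 6 passed the test in at least 1 comparison, and all 6 passed in a comparison with resolution. Ccnd3, E2f1 and Cdc6 were higher in resolution than in both other groups, Ccnd2 and Pcna passed against control alone, and Mcm5 passed against acute alone. Against control, 4 of the 42 genes were higher (Ccnd3, E2f1, Cdc6 and Ccnd2) and 1 was lower (Pcna), which is 11.9%, where 18.6% of all genes tested passed (9.6% higher and 9% lower). At an unadjusted p under 0.05 there were 8 of the 42, beside 31.3% of all genes. Against acute, 4 were higher (Ccnd3, E2f1, Cdc6 and Mcm5) and 0 were lower, which is 9.52%, where 14.5% of all genes passed (7.77% higher and 6.69% lower). At an unadjusted p under 0.05 there were 10 of the 42, beside 28.8% of all genes. Between acute and control, limma called 0 of the 42, with 6 at an unadjusted p under 0.05, where 0.239% of all genes passed after adjustment (0.189% higher and 0.0494% lower) and 9.05% before it. The share of the list that was called lay below that of all genes in both comparisons with resolution. Between acute and control so few genes passed that 0 of the 42 says little about the list. The arrays were also compared by their ranges alone. Between resolution and control, 6 of the 42 genes had all resolution arrays above (beside 11.4% of all genes) and 2 had all below (beside 11.2%), together beside 22.7% of all genes. Between resolution and acute, 5 lay above (beside 13.5%) and 2 below (beside 12.9%), together beside 26.3% of all genes. Between acute and control, 2 lay above (beside 4.71%) and 1 below (beside 5.39%), together beside 10.1% of all genes. Each pair of comparisons shares the arrays of 1 group, so they are not independent of each other.

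**Figure D1:**
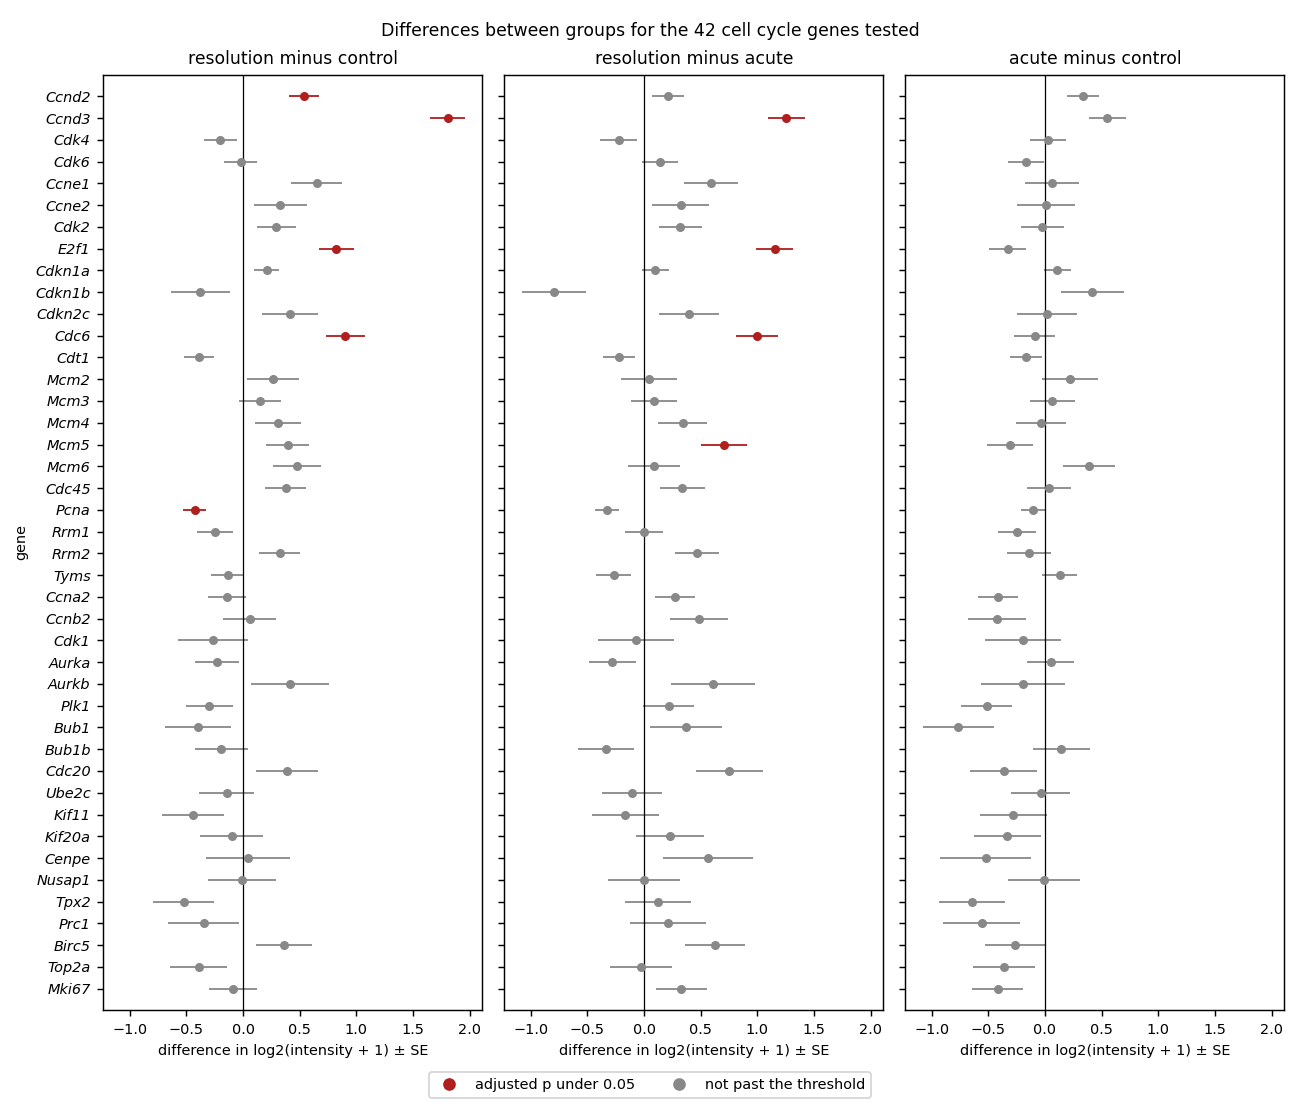
Difference between groups for each of the 42 genes tested, on the log2(intensity + 1) scale, with points at the limma estimate and bars of 1 standard error (SE), for resolution minus control, resolution minus acute and acute minus control. Red points passed an adjusted p of 0.05: 5 in the first panel, 4 in the second and 0 in the last, the largest being Ccnd3 at 1.81 above control.

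Among the D-type cyclins, Ccnd3 changed most. Ccnd3, cyclin D3, which pairs with Cdk4 and Cdk6 to start the passage through G1, stood at 14.83, 15.38, 14.98 and 15.14 in the resolution arrays, at 13.72, 13.82 and 13.95 in the acute arrays and at 13.07, 13.09, 13.34 and 13.62 in the control arrays. The 3 groups did not overlap, with resolution highest and control lowest. Ccnd3 was 3.50-fold higher in resolution than in control, a difference of 1.81 ± 0.15 (SE, adjusted p = 8.86e-06), and 2.39-fold higher in resolution than in acute (1.26 ± 0.17 SE, adjusted p = 0.000326). The step between acute and control, 0.55 ± 0.17 (SE), did not pass (adjusted p = 0.308), with a 95% interval of 0.19 to 0.91.

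Ccnd2, cyclin D2, the other D-type cyclin measured, stood at 11.58, 11.08, 11.19 and 11.37 in resolution, at 10.93, 11.05 and 11.31 in acute and at 10.69, 10.83, 10.77 and 10.77 in control arrays. Every resolution and every acute array lay above every control array, while the resolution and acute arrays overlapped. Ccnd2 was 1.45-fold higher in resolution than in control (0.54 ± 0.13 SE, adjusted p = 0.0122). Its difference between acute and control, 0.33 ± 0.14 (SE), did not pass (adjusted p = 0.507).

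E2f1, a transcription factor that drives replication genes and is itself held by the retinoblastoma protein, stood at 8.29, 8.47, 8.18 and 8.44 in resolution, at 7.40, 7.29 and 6.89 in acute and at 7.43, 7.67, 7.22 and 7.77 in control arrays. All resolution arrays lay above all others, and the acute and control arrays overlapped. E2f1 was 1.77-fold higher in resolution than in control (0.82 ± 0.15 SE, adjusted p = 0.00238) and 2.22-fold higher in resolution than in acute (1.15 ± 0.16 SE, adjusted p = 0.000582).

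The other 5 measured genes of this stage did not pass in any comparison. Ccne1, cyclin E1, which activates Cdk2 at the start of S phase, averaged 9.88 in resolution, 9.29 in acute and 9.23 in control arrays. Its resolution arrays, 9.64 to 10.04, lay just above its control arrays, 8.80 to 9.62, with a difference of 0.65 ± 0.22 (SE, adjusted p = 0.0599). Ccne2 and Cdk2 differed by 0.33 and 0.30 between resolution and control. Of the partner kinases of the D cyclins, Cdk4 differed by -0.20 (95% interval -0.52 to 0.12) and Cdk6 by -0.02 (95% interval -0.34 to 0.30) between resolution and control.

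**Figure D2:**
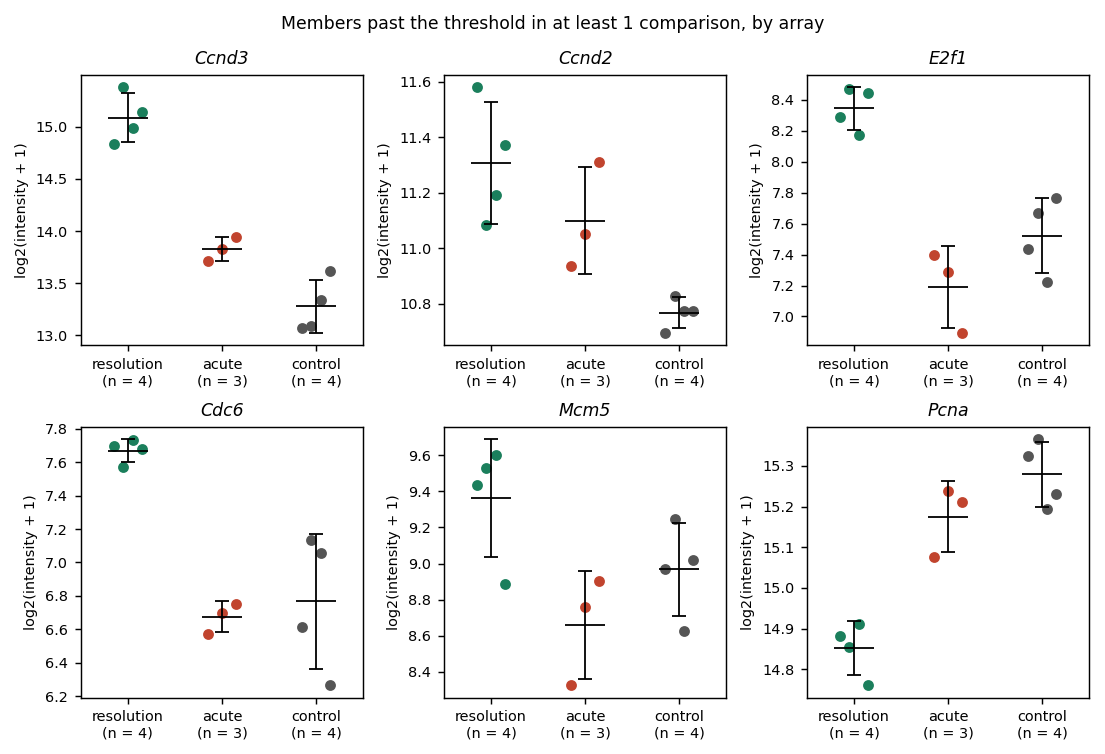
Level of the 6 genes that passed the threshold in at least 1 comparison, as log2(intensity + 1), with 1 point for each array, a line at the group mean and bars of 1 SD, for resolution (n = 4), acute (n = 3) and control (n = 4). Resolution arrays are the highest for Ccnd3, E2f1 and Cdc6 and the lowest for Pcna, and they overlap the control and acute arrays for Mcm5.

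Among origin licensing genes, Cdc6 was higher in resolution. Cdc6, the ATPase that loads the MCM helicase at origins, stood at 7.70, 7.57, 7.73 and 7.68 in resolution, at 6.57, 6.70 and 6.75 in acute and at 6.61, 7.13, 7.05 and 6.26 in control arrays. The resolution arrays lay close together and above every other array, and the control arrays were spread most. Cdc6 was 1.87-fold higher in resolution than in control (0.90 ± 0.17 SE, adjusted p = 0.00272) and 1.99-fold higher in resolution than in acute (0.99 ± 0.18 SE, adjusted p = 0.00326).

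Mcm5, a subunit of the hexameric helicase that opens DNA at the fork, stood at 9.44, 9.53, 9.60 and 8.88 in resolution, at 8.32, 8.76 and 8.90 in acute and at 8.97, 9.25, 8.63 and 9.02 in control arrays. Resolution 4 lay below acute 3, and the other 3 resolution arrays lay above all acute and control arrays. Mcm5 was 1.63-fold higher in resolution than in acute (0.70 ± 0.20 SE, adjusted p = 0.0378). This call was lost in 9 of 21 alternative settings, with adjusted p between 0.0511 and 0.165 in those.

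The 5 MCM subunits measured, Mcm2, Mcm3, Mcm4, Mcm5 and Mcm6, all had positive differences between resolution and control, from 0.15 for Mcm3 to 0.48 for Mcm6, and none of the 5 passed there. Without resolution 3 the count was 4 of 5 positive. Mcm3, another subunit, stood at 11.04, 10.82, 11.44 and 10.52 in resolution, at 10.60, 10.96 and 11.04 in acute and at 10.88, 11.01, 10.59 and 10.73 in control arrays, so that its groups overlapped throughout. In the resolution group each MCM gene was lowest or next to lowest in resolution 4. Cdt1, the licensing factor that works beside Cdc6, ran the other way, at 9.80 to 10.11 in resolution, 9.98 to 10.44 in acute and 10.17 to 10.49 in control arrays, and its difference of -0.39 ± 0.13 (SE) between resolution and control did not pass (adjusted p = 0.0586). Cdc45, which joins the helicase when origins fire, lay near background at 6.10 to 6.99 in resolution, 6.29 to 6.42 in acute and 6.07 to 6.47 in control arrays.

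Of the 4 genes for DNA synthesis and its nucleotide supply, Pcna was the one that changed. Pcna, the sliding clamp of the replication fork, which also serves DNA repair, stood at 14.88, 14.86, 14.91 and 14.76 in resolution, at 15.08, 15.24 and 15.21 in acute and at 15.33, 15.37, 15.19 and 15.23 in control arrays. Every resolution array lay below every other array, and the SD was 0.07 in resolution, 0.09 in acute and 0.08 in control arrays. Pcna was 1.34-fold lower in resolution than in control (-0.43 ± 0.10 SE, adjusted p = 0.00953). Its difference between resolution and acute, -0.32 ± 0.11 (SE), did not pass (adjusted p = 0.0628). The subunits of ribonucleotide reductase, which makes deoxynucleotides, did not pass: Rrm2 averaged 7.54 in resolution, 7.07 in acute and 7.22 in control arrays, and Rrm1 averaged 9.82 in resolution, 9.82 in acute and 10.06 in control arrays. Tyms, thymidylate synthase, averaged 9.58 in resolution, 9.85 in acute and 9.72 in control arrays.

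None of the 19 G2 and mitotic genes tested passed in any comparison by limma. Of all genes, 18.6% passed between resolution and control, 14.5% between resolution and acute and 0.239% between acute and control. The median SE of the 19 between resolution and control was 0.27, beside 0.16 over all genes, so a call needed a larger difference. At an unadjusted p under 0.05 there were 0 of the 19 between resolution and control (beside 31.3% of all genes), 2 between resolution and acute (beside 28.8%) and 4 between acute and control (beside 9.05%). Their median difference was -0.14 between resolution and control (5 positive and 14 negative), 0.22 between resolution and acute (12 positive and 7 negative) and -0.36 between acute and control (2 positive and 17 negative). The medians over all genes were 0.0035, -0.0013 and -0.00059 in these comparisons. Single mice moved these medians. Without acute 1 the median was 0.07 between resolution and acute and -0.13 between acute and control, and without resolution 1 it was 0.03 between resolution and acute and -0.31 between resolution and control. Leaving out 1 array in turn gave -0.31 to -0.03 between resolution and control, 0.03 to 0.33 between resolution and acute and -0.52 to -0.13 between acute and control. With quantile normalization the median was -0.24 between resolution and control and 0.07 between resolution and acute, and with a common median it was 0.15 between resolution and acute. The medians over all genes also fell, to -0.030 and -0.075 with quantile normalization and to -0.071 with a common median. The genes with the smallest p between acute and control, besides the D cyclins, were all mitotic. Bub1, a kinase of the spindle checkpoint, stood at 6.02, 6.67 and 6.40 in acute and at 7.15, 8.06, 6.51 and 6.79 in control arrays, a difference of -0.77 ± 0.31 (SE, adjusted p = 0.494). Tpx2, a spindle assembly factor, stood at 7.32, 7.46 and 7.51 in acute and at 8.37, 8.29, 7.62 and 8.04 in control arrays, where the groups did not overlap (-0.65 ± 0.29 SE, adjusted p = 0.534). Plk1, a kinase that drives mitotic entry, differed by -0.51 ± 0.23 (SE, adjusted p = 0.521), and Ccna2, cyclin A2, by -0.41 ± 0.18 (SE, adjusted p = 0.512).

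Mki67, the proliferation marker Ki-67, stood at 13.12, 12.36, 12.65 and 12.41 in resolution, at 11.96, 12.53 and 12.43 in acute and at 12.87, 13.14, 12.42 and 12.47 in control arrays. All 3 groups overlapped, and the range among the mice of each group was wider than any difference between group means. Its difference was -0.09 between resolution and control (95% interval -0.54 to 0.37), 0.33 between resolution and acute (95% interval -0.16 to 0.82) and -0.42 between acute and control (95% interval -0.91 to 0.07). Ccnb2, cyclin B2, which activates Cdk1 for mitosis, stood at 10.96, 10.79, 10.62 and 10.10 in resolution, at 9.90, 10.44 and 10.06 in acute and at 10.91, 10.96, 10.03 and 10.34 in control arrays. Bub1b, another part of the spindle checkpoint, stood at 10.31, 9.65, 10.12 and 9.26 in resolution, at 10.40, 10.26 and 9.84 in acute and at 10.16, 10.29, 10.10 and 9.56 in control arrays. Both genes overlapped between all groups. Cdc20, the activator of the anaphase-promoting complex, had resolution arrays of 8.14 to 8.81 above acute arrays of 7.11 to 8.13, and its difference of 0.75 ± 0.29 (SE) did not pass (adjusted p = 0.112). Top2a, the topoisomerase that untangles sister chromatids, differed by -0.39 between resolution and control (95% interval -0.93 to 0.16).

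Mitotic genes differed widely between mice of 1 group, and many had the same mice high or low. This pattern was noticed in the values and is given as a description without a test. The median SD within groups was 0.45 over the 19 mitotic genes, 0.28 over the 12 replication genes and 0.22 over the 8 genes of G1, beside 0.23 over all genes, at levels that were not matched. Resolution 1 was the highest of the 4 resolution arrays for 16 of the 19 mitotic genes, beside 21.3% of all genes. Acute 1 was the lowest acute array for 17 of the 19, beside 42.4% of all genes. Control 2 was the highest control array for 13 and control 1 for the other 6, beside 27.4% and 23.7% of all genes, and control 3 was the lowest for 12. Prc1, a bundler of spindle microtubules, shows it plainly, with 9.52, 7.81, 8.31 and 8.11 in resolution, 8.01, 8.24 and 8.42 in acute and 9.25, 8.98, 8.40 and 8.51 in control arrays. Resolution 1 and control 1 stood above the rest for this gene.

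Among replication genes another resolution mouse was highest, while control 2 was again the highest control mouse for most genes. Resolution 3 was the highest resolution array for 10 of the 12 replication genes, beside 21.7% of all genes, and control 2 was the highest control array for all 12. Among the 41 other replication genes tested, resolution 3 was highest for 13, resolution 2 also for 13 and control 2 for 23. The mean over the mitotic genes was 9.26, 8.56, 8.79 and 8.56 in resolution, 8.28, 8.86 and 8.66 in acute and 9.15, 9.33, 8.56 and 8.59 in control arrays. The mean over the replication genes was 9.66, 9.61, 9.74 and 9.38 in resolution, 9.28, 9.50 and 9.45 in acute and 9.39, 9.72, 9.28 and 9.34 in control arrays. Both means were lowest of their group in acute 1, the array whose mean over 3 red cell markers was 10.32, against 6.01 and 6.77 on the other acute arrays, and the part of red cells in this was not tested. For the 37 mitotic genes tested that are outside the list, the counts ran the same way, with resolution 1 the highest for 27, acute 1 the lowest for 24 and control 2 the highest for 23.

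**Figure D3:**
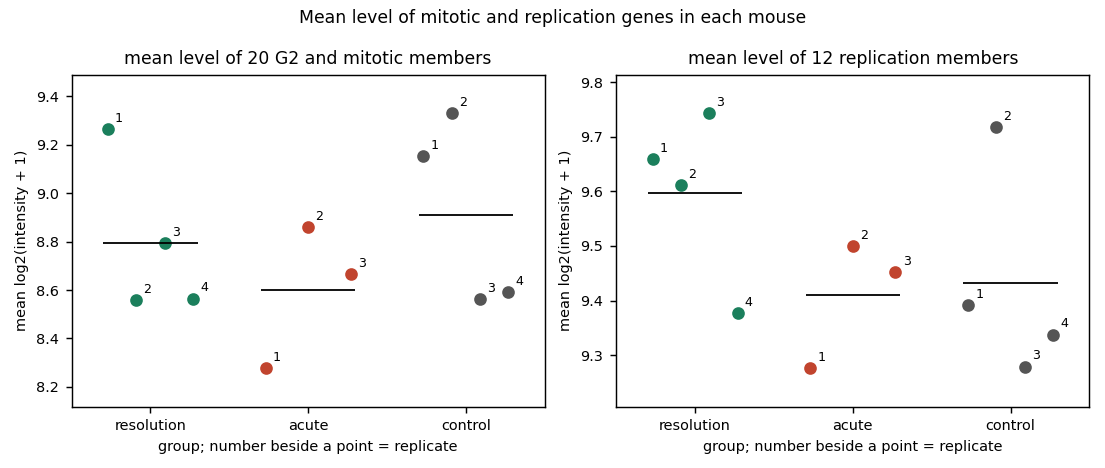
Mean log2(intensity + 1) over the 20 mitotic genes on the array and over the 12 replication genes, with 1 numbered point for each mouse and a line at the group mean. Mitotic means overlap between all groups (8.56 to 9.26 in resolution, 8.28 to 8.86 in acute and 8.56 to 9.33 in control), with resolution 1, control 1 and control 2 highest.

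**Figure D4:**
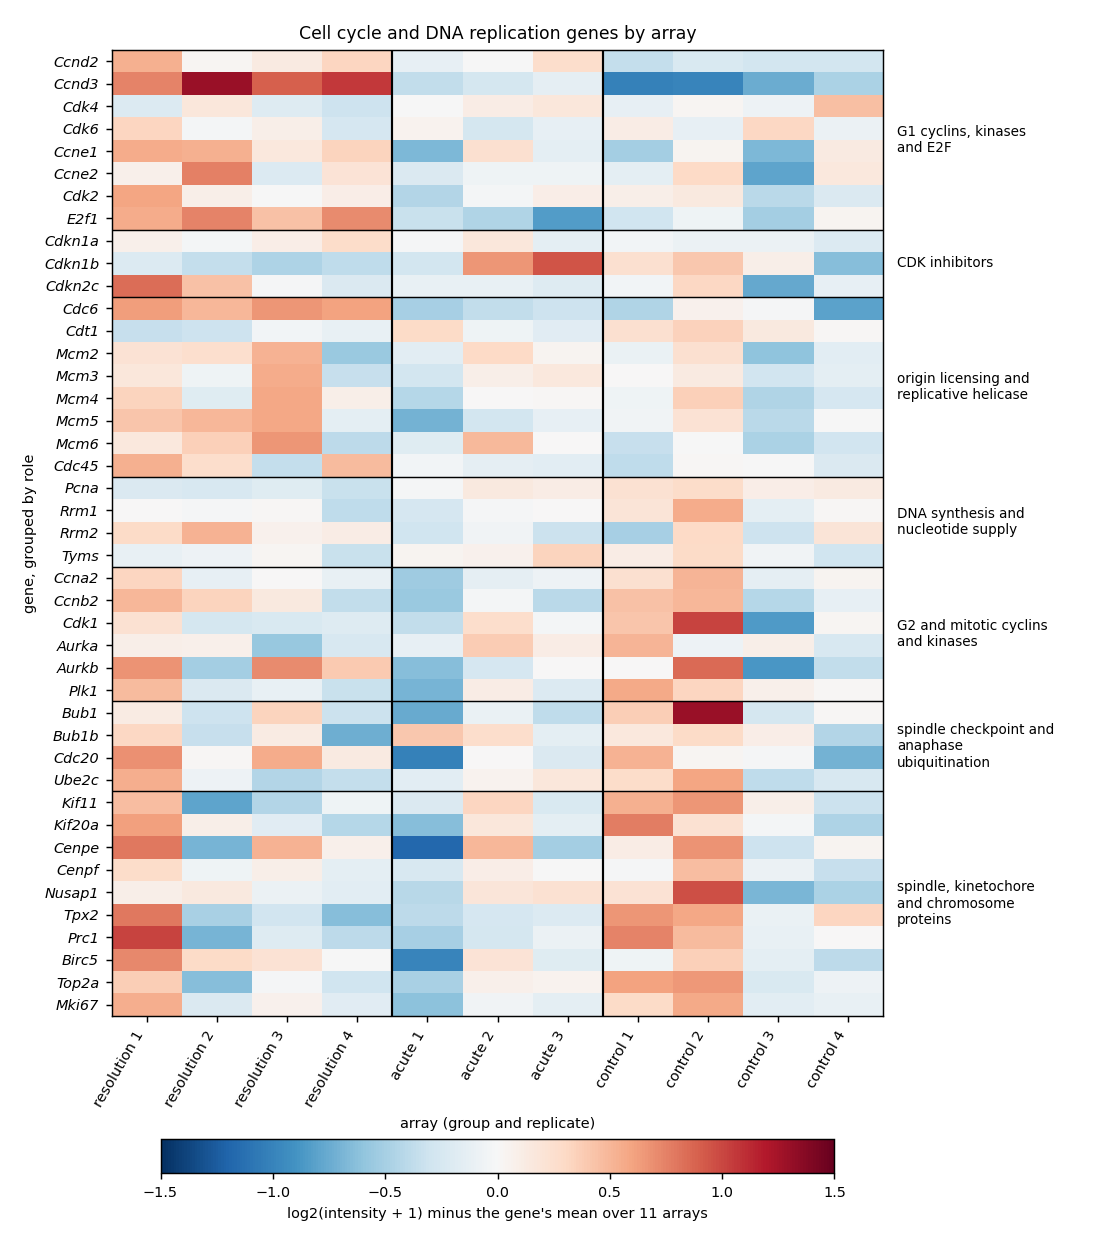
Level of each of the 43 genes on each of the 11 arrays, as the log2 difference from that gene's mean over all arrays, with genes ordered by role and arrays by group. Ccnd3, E2f1 and Cdc6 are high in all 4 resolution arrays, while mitotic genes follow single mice such as resolution 1, control 1 and control 2.

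The 3 inhibitors of cyclin-dependent kinases on the list did not pass in any comparison by limma, with 0, 1 and 0 at an unadjusted p under 0.05 in resolution against control, resolution against acute and acute against control. The shares of all genes under that p were 31.3%, 28.8% and 9.05%. Cdkn1a, p21, a main target of p53, stood at 16.44, 16.33, 16.45 and 16.63 in resolution, at 16.34, 16.52 and 16.22 in acute and at 16.32, 16.27, 16.27 and 16.15 in control arrays. Its resolution arrays lay just above its control arrays, and the difference was 0.21 (95% interval -0.03 to 0.45, adjusted p = 0.226). Cdkn1b, p27, stood at 8.79, 8.64, 8.53 and 8.61 in resolution, at 8.72, 9.66 and 9.93 in acute and at 9.23, 9.40, 9.08 and 8.36 in control arrays. Acute 2 and acute 3 were highest and acute 1 lay among the resolution arrays, and the difference of -0.80 ± 0.28 (SE) between resolution and acute did not pass (adjusted p = 0.0786). Cdkn2c, p18, averaged 7.02 in resolution, 6.63 in acute and 6.61 in control arrays.

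Other genes of the pathway, taken from lists set up by function, gave 0 calls by limma between acute and control in each list described here (beside 0.239% of all genes). The lists were chosen with earlier results of these data known. Their shares beside those of all genes, here and below, are therefore description and not a test of the lists. A list had 0 to 4 genes at an unadjusted p under 0.05 (beside 9.05% of all genes). The list of other replication fork and polymerase genes had 3 of 25 higher and 1 lower in resolution than in control (16% called, beside 18.6% of all genes), and the median difference was 0.18. Pold1, the catalytic subunit of DNA polymerase delta, stood at 11.15, 10.54, 11.39 and 10.85 in resolution, at 7.93, 8.73 and 9.17 in acute and at 8.90, 8.91, 8.25 and 8.51 in control arrays. Its resolution arrays lay far above all others, 5.06-fold above control (2.34 ± 0.26 SE, adjusted p = 6.21e-05) and 5.18-fold above acute (2.37 ± 0.28 SE, adjusted p = 0.000166). Rpa3, a subunit of the single-strand binding protein, was 2.00-fold higher in resolution than in control (adjusted p = 0.00298), and Rfc2, of the clamp loader for Pcna, was 1.72-fold higher (adjusted p = 0.0147). Dnmt1, the maintenance DNA methyltransferase, was 1.59-fold lower in resolution than in control (adjusted p = 0.0236, and 0.0661 to 0.0678 without control 2, resolution 2 or resolution 4). Against acute, 1 gene of this list was higher, Pold1, and 1 was lower, Rpa2, another subunit of the single-strand binding protein (1.59-fold, adjusted p = 0.0151, and 0.0711 without acute 2). In the list of other origin genes 2 of 16 were higher and 1 was lower in resolution than in control (18.8% called, beside 18.6% of all genes). Gins4, a subunit of the active helicase, was 1.50-fold higher (adjusted p = 0.00744), and Gmnn, geminin, the inhibitor of Cdt1, was 1.66-fold higher (adjusted p = 0.016, and 0.0505 without resolution 3). Cdc7, the kinase that fires origins, stood at 7.44, 6.80, 6.63 and 6.02 in resolution and at 7.48, 8.21, 7.71 and 7.97 in control arrays, 2.17-fold lower in resolution (adjusted p = 0.00845).

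The retinoblastoma, E2F and DREAM list had 2 of 18 higher and 1 lower in resolution than in control (16.7% called, beside 18.6% of all genes). E2f2, an activating E2F like E2f1, stood at 9.08, 9.65, 8.81 and 8.82 in resolution, at 8.29, 7.85 and 8.04 in acute and between 7.45 and 8.72 in the 4 control arrays. Its resolution arrays lay above all others, 2.00-fold above control (adjusted p = 0.0151) and 2.04-fold above acute (adjusted p = 0.0243). The call against acute for E2f2 was lost with quantile normalization (adjusted p = 0.0777) and without acute 2 (adjusted p = 0.0877), acute 3 (0.0683) or resolution 2 (0.0555). Rbl2, the p130 pocket protein of the DREAM complex, was 1.61-fold higher in resolution than in control (adjusted p = 0.0103), and E2f6, a repressive E2F, was 2.09-fold lower (adjusted p = 0.0198, and 0.0568 to 0.0593 without control 1, control 2 or resolution 3). Of the 37 other mitotic genes, 3 were higher and 1 lower in resolution than in control (10.8% called, beside 18.6% of all genes). Espl1, separase, was 1.66-fold higher (adjusted p = 0.0139), Aspm, a spindle pole protein, was 1.76-fold higher (adjusted p = 0.0181, and 0.0507 without resolution 1 and 0.0503 without control 3), and Anln, anillin of the cleavage furrow, was 1.77-fold higher (adjusted p = 0.0362, lost in 9 of 21 alternative settings and highest, at 0.099, without resolution 1). Cdc25b, a phosphatase that activates Cdk1, was 1.49-fold lower (adjusted p = 0.0225, and 0.05 without control 1 and 0.0564 without control 2).

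Among 3 other CDK inhibitors tested, 1 was lower and 1 higher in resolution in both comparisons (66.7% called, beside 18.6% of all genes against control and 14.5% against acute). Cdkn2b, p15, an inhibitor of Cdk4 and Cdk6, stood at 8.08, 7.95, 7.68 and 7.93 in resolution, at 8.86, 9.01 and 8.94 in acute and between 8.81 and 9.62 in the 4 control arrays. All resolution arrays lay below all others, 2.44-fold below control (-1.29 ± 0.17 SE, adjusted p = 0.00018) and 2.04-fold below acute (-1.03 ± 0.18 SE, adjusted p = 0.00223). Cdkn2d, p19, stood at 6.39 to 7.43 in resolution, above all other arrays, and its acute arrays (5.76 to 5.84) were below background. It passed against control (adjusted p = 0.011) and against acute (adjusted p = 0.0179), and the call against acute was lost with quantile normalization (0.0502), without acute 1 (0.0554) or without acute 3 (0.0579). Of 16 p53 target genes, 4 were lower and 3 higher in resolution than in control (43.8% called, beside 18.6% of all genes), with a median difference of -0.0047. Gadd45a, a growth arrest and DNA damage gene, was 4.34-fold lower in resolution than in control (-2.12 ± 0.28 SE, adjusted p = 0.000197), and Mdm2, the ubiquitin ligase for p53, was 2.29-fold lower (-1.19 ± 0.13 SE, adjusted p = 5.67e-05). Plk2, a kinase induced by p53, averaged 6.19 in resolution, near background, 11.47 in acute and 12.24 in control arrays. Fas, a death receptor, was the other lower gene, at 6.27 in resolution, near background, 7.54 in acute and 7.31 in control arrays. Of the 3 higher genes, Btg2, an antiproliferative gene, was 2.84-fold higher in resolution than in control (adjusted p = 0.00184), and Perp, a desmosome protein and p53 target, was 1.85-fold higher (adjusted p = 0.00168). Sesn2, a stress-induced sestrin, was above background on only 2 of the 11 arrays. Of the 14 DNA damage checkpoint genes none passed between resolution and control (beside 18.6% of all genes), with 4 at an unadjusted p under 0.05 (beside 31.3%). Against acute, 2 of the 14 were higher (14.3% called, beside 14.5% of all genes). Atm, the kinase that senses double-strand breaks, was 2.38-fold higher in resolution than in acute (adjusted p = 0.00165). Blm, a repair helicase, was 1.69-fold higher there (adjusted p = 0.0398), a call lost in 10 of 21 alternative settings.

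Among 10 growth signal genes tested, 1 was higher and 4 were lower in resolution than in control (50% called, beside 18.6% of all genes, of which 9.6% higher and 9% lower). Klf4, a transcription factor of myeloid differentiation, stood at 10.74, 10.96, 11.14 and 10.99 in resolution, at 8.95, 9.39 and 9.24 in acute and at 9.21, 8.75, 8.98 and 8.77 in control arrays. It was 4.09-fold higher in resolution than in control (2.03 ± 0.14 SE, adjusted p = 2.99e-06) and 3.41-fold higher in resolution than in acute (adjusted p = 2.14e-05). Bhlhe41, a transcription factor that maintains alveolar macrophage identity, stood at 10.36, 10.00, 10.52 and 9.93 in resolution, at 11.31, 11.41 and 11.37 in acute and at 11.86, 11.65, 11.29 and 11.71 in control arrays. All its resolution arrays lay below all others, 2.69-fold below control (adjusted p = 5.82e-05) and 2.24-fold below acute (adjusted p = 0.000704). Csf1r, the receptor for macrophage growth factor, averaged 12.94 in resolution, 13.51 in acute and 13.46 in control arrays, 1.44-fold lower in resolution than in control (adjusted p = 0.0319), a call lost in 7 of 21 alternative settings. Myc, a driver of cell growth, stood at 8.88, 10.18, 9.80 and 8.89 in resolution and at 9.76, 10.40, 10.53 and 10.77 in control arrays, with resolution 2 and resolution 3 overlapping control 1. Its difference of -0.93 ± 0.29 (SE, adjusted p = 0.0409) did not pass in 10 of 21 alternative settings. The call for Csf2rb, the other gene lower than in control, was lost in 13 of 21. Of the 4 lower genes, Bhlhe41 alone passed in all 21.

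**Figure D5:**
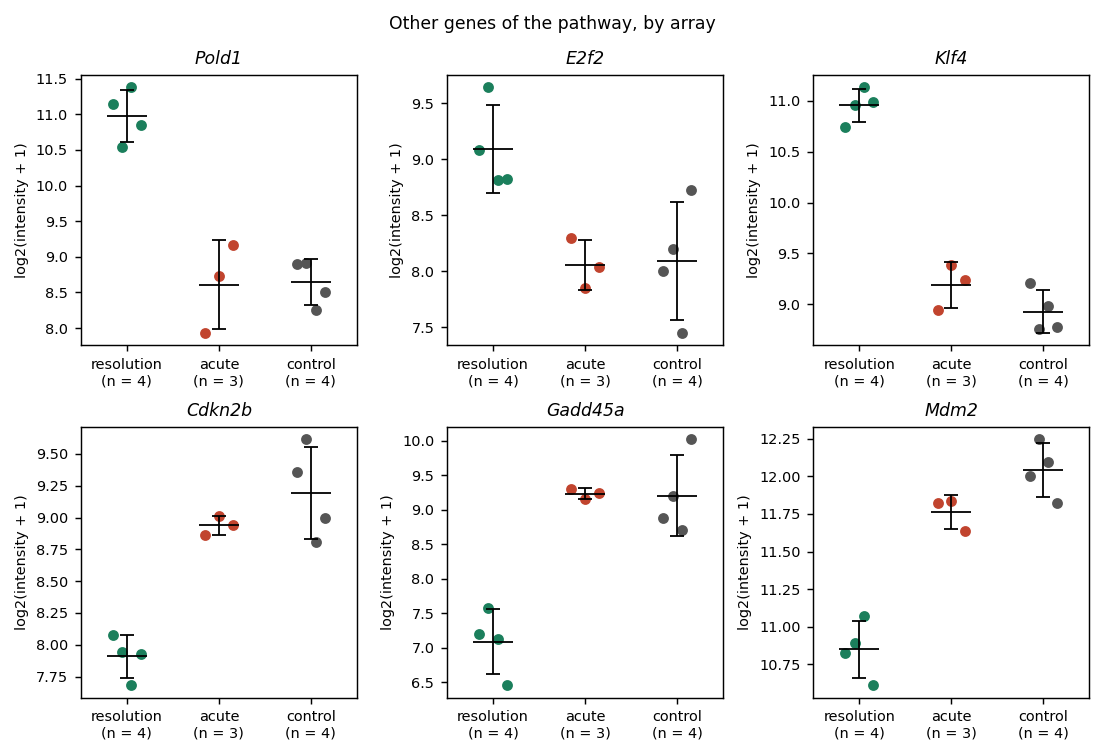
Level of 6 other genes of the pathway as log2(intensity + 1), with 1 point for each array, a line at the group mean and bars of 1 SD, for resolution (n = 4), acute (n = 3) and control (n = 4). Resolution arrays lie above all others for Pold1, E2f2 and Klf4 and below all others for Cdkn2b, Gadd45a and Mdm2.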

How the data were processed

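Affymetrix arrays were hybridised with macrophage RNA of 11 mice, 1 array each, which the labels call biological replicates. Per the labels' protocols, Trizol was used for extraction and a 3' IVT Pico kit for biotin labelling. Per the submitters' processing notes, Affymetrix Expression Console was the authors' software. Its version and summary algorithm were not stated in the labels or headers. The deposited values were intensities per transcript cluster on a linear scale, and log2(intensity + 1) was taken without further scaling.

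Of several clusters with 1 symbol, the one with the highest mean was taken. A gene was tested where at least 3 arrays lay above their own 40th percentile (12143 genes). limma 3.58.1 in R 4.3.3 fitted a mean per group over all 11 arrays, with 8 residual and 4.48 prior degrees of freedom, two-sided tests and Benjamini-Hochberg adjustment over all genes. Errors are moderated SE for differences and SD for means, and the number of arrays limits the precision. Background was the 90th percentile of 23 control probe sets per array. The members and lists were chosen with earlier results of these data known. Genes named are those past the threshold, the 6 smallest p of each comparison, the highest of each role, and up to 3 per pathway list. Prc1, Cdc45, Dnmt1, Myc, Anln, Perp, Btg2, Sesn2, Fas, Csf2rb and Kif2c were added after their values were seen. The procedure was tested on simulated data. Motif counts came from RefSeq promoter windows. Alternatives covered scaling, pseudocount, filter, model and each array left out.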

Additional observations from a re-analysis of the deposited data

Results flagged for a closer look

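In 2 of 92 checks of a gene's level or a set's mean within a group, 1 array stood apart from the others of its group, where chance alone gives about 1 in 20. Rrm1, a subunit of ribonucleotide reductase, was at 9.53 in resolution 4 against 9.89 to 9.93 in the other resolution arrays, a gap of 0.9087 of the group's range. Cdk1, the mitotic kinase, was at 10.14 in resolution 1 against 9.65 to 9.72 in the other resolution arrays, a gap of 0.8476 of the range.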

How the results depend on the processing

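The 9 calls among the 42 genes were recomputed under 21 alternatives, 11 of them leaving out 1 array, and 8 passed in every one. There were 0 reversals of sign where a result was called in the reported fit or in the alternative. Changes of sign in results called in neither were not counted. The exception was Mcm5 between resolution and acute, which missed the threshold with a common median (adjusted p = 0.0831), quantile normalization (0.107) or only the 2 groups compared (0.0522), and without control 1 (0.0511), acute 1 (0.165), acute 2 (0.0714), resolution 1 (0.0786), resolution 2 (0.0791) or resolution 3 (0.0963). The cause was not tested. Calls were gained in 29 instances, most often Ccne1 and Cdt1 between resolution and control. Leaving out 1 array gave 5 to 7 called genes of the 42 in resolution against control, 3 to 5 in resolution against acute and 0 in acute against control. Over all genes these ranges were 1829 to 2242, 1069 to 1837 (lowest without acute 1) and 6 to 29 (6 without acute 2, 10 without acute 3, 13 without control 1 and 18 without control 2). Between acute and control the 29 genes became 16 with only the 2 groups compared, 51 with an intensity trend and 54 with array weights. A common median or quantile scaling gave 671 higher and 996 lower, or 683 and 1152, in resolution against acute, where the reported fit had 943 and 812. In acute against control they gave 25 higher and 3 lower, or 29 and 3, where the reported fit had 23 and 6. In resolution against control they gave 879 higher and 1204 lower, or 1000 and 1260, where it had 1166 and 1093. Both scalings also gave a median difference of -0.03 for the 42 genes between resolution and control, where it was 0.02. The median over all genes moved the same way, from 0.0035 to -0.043 with a common median and -0.030 with quantile normalization. Samples with the same number did not deviate together (10 pairs, correlations -0.12 to 0.09). With so few arrays in a group, this check cannot exclude a small effect shared by samples of 1 number. A replicate block gave 25, 2120 and 1455 genes in acute against control, resolution against control and resolution against acute, with 0, 6 and 4 of the 42 called. Of 50 calls among the other pathway genes, 31 held in every alternative run and 19 were lost in at least 1.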
